A study of Mus musculus with 39 samples.

Results

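The Elovl genes encode the 7 fatty acid elongases of the mouse, Elovl1 to Elovl7. They were chosen by gene symbol from 29407 gene symbols on the array, and 9 of its 40628 probes carry them. Elovl5 and Elovl7 have 2 probes each, and every gene is described by its brighter probe. Elovl3 and Elovl6 were set apart from the other 5 genes with their difference between the high fat and the low fat diet already known, so the diet differences of the genes are given as a description, without a test.

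Elongases sit in the membrane of the endoplasmic reticulum and catalyse the first and rate-limiting step by which a fatty acyl-CoA is lengthened by a pair of carbons. A ketoacyl reductase, a dehydratase and an enoyl reductase complete each round. Elovl6 lengthens the palmitate made by fatty acid synthase to stearate, Elovl3 makes longer saturated and monounsaturated chains and is known for its induction in brown fat in the cold, Elovl1 and Elovl7 act on saturated very long chains, Elovl2 and Elovl5 act on polyunsaturated chains, and Elovl4 makes the longest chains of retina and skin.

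RNA came from a sample that the labels call brown SVCs and infiltrating macrophages, from C57BL/6J mice, and 39 one-colour arrays were hybridised. Mice were placed on their diets after weaning, at 3 to 4 weeks of age, and 5 animals per diet were taken at each 3-week interval. The sources used here do not say whether their RNA was pooled. LFC (10 arrays) received a normal diet with 10% of the calories from fat, and HFC (11 arrays) received a high fat, high sucrose diet with 60% of the calories from fat. HF5, HF20 and HF75 (6 arrays each) received the HFC diet with 5, 20 or 75 µg of KAL-1, a botanical formulation. The labels of HF20 Week 12 disagree, since its title and source name say HF20 and its diet field says high fat diet without KAL-1. It was kept as HF20. The time labels were Day 1, 6, 10 and 14 and Week 0, 3, 6, 9, 12, 15 and 18, with weeks counted from Day 14. The design text speaks of biological replicates, but each diet had 1 array per label here. LFC had none at Week 6, and the first arrays of the KAL-1 diets are of Week 3. No diet was repeated at a label, so the labels served as the replicates, and the spread between them holds time as well as error.

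Levels are log2 processed signals minus the 75th percentile of their own array, so that a difference of 1 between arrays is a 2-fold difference. The 75th percentile ranged from 18.1 to 3974 intensity units, and 31.2% to 98.0% of the probes were well above background. On 9 arrays the 75th percentile was 735 or higher, while it was at most 468 on the other 30. These bright arrays were LFC Week 12, HFC Week 6, 9 and 12, HF5 Week 9 and 15, HF20 Week 12 and 15, and HF75 Week 15. The probes of Ucp1, Adipoq and Fasn were each saturated on 7 of them. The titles of 9 arrays hold BA or BAT, and 6 of these arrays are bright. The 6 are LFC Week 12, HFC Week 9, HF5 Week 9 and 15, HF20 Week 12 and HF75 Week 15. The other titled arrays are HFC Day 1, LFC Day 6 and LFC Week 18. On 3 arrays 11.1% to 71.4% of the spots were marked as outliers and dropped, against at most 2.19% on the others. The 3 are HFC Week 12, HF5 Week 12 and HF20 Week 15.

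Markers of fat cells and of macrophages were both present. Ucp1, the uncoupling protein of brown fat, Adipoq, the adipocyte hormone adiponectin, and the macrophage genes Cd68 and Adgre1 (Emr1 on the array) were well above background on all 39 arrays, and the fatty acid carrier Fabp4 was saturated on 29. A lower share of fat cells and less RNA per fat cell cannot be told apart in such samples. Ucp1 was at -3.16 on LFC Day 10 and -3.18 on HFC Week 12, against 1.48 to 8.82 on the other arrays. The HFC differences of Elovl3 and Elovl6 are therefore also given without these 2 arrays. Those of the other genes and of the marker lists include them. In the submitters' series table, which sets LFC to 0 at every other shared label, the HFC column holds the zeros at Day 14. The difference between the Day 14 columns ran opposite to the scanner files (Pearson's r = -0.995 over 40607 probes). The labels of these 2 arrays therefore disagree between the sources, and the labels of the scanner files were kept. At Week 12 the series table followed the scanner files less closely (Pearson's r = 0.778 over 36379 probes). At the remaining shared labels r was 0.99 or higher. The reason for the lower value at Week 12 was not tested.

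The probes are 60 bases long, and each gene's level is what its probe captured. The first 30 bases of the probes on which the results turn are shown 5′ to 3′, with AATAAA, the letters of the polyadenylation signal, in capitals. They name the stretch of each transcript that was read, and the 2 probes of Elovl5 are an internal check of that gene.
Elovl3: ggcctggtaggcgcttAATAAAtgtctttt
Elovl6: cctaggccctaaacccatattcagagggaa
Elovl5, brighter probe: ctcaatacaaaaattataacatttgatagt
Elovl5, dimmer probe: ctgtagtgctactttgacatacacttcctt
Of the 9 probes the Elovl3 probe alone holds AATAAA, as do 7.50% of all probes. The array annotation places Elovl3 on chromosome 19 (19 C3), Elovl6 on chromosome 3 (3 G3), Elovl5 on chromosome 9 (9 E1) with Elovl4 (9 E2), Elovl1 on chromosome 4 (4 D2.1), and Elovl2 (13 A3.3) and Elovl7 (13 D2.1) on chromosome 13.

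Elovl3 was lower on the high fat than on the low fat diet at 9 of the 10 shared labels. In LFC its level had a low of -5.69, a median of -1.51 and a high of 2.69 over 10 arrays. In HFC the low was -8.50, the median -4.04 and the high -0.30 over 11 arrays. The groups overlapped, since 6 of the 10 LFC arrays lay inside the HFC range, while LFC Week 3, 9, 12 and 15 lay above all HFC arrays. The probe was well above background on 9 of 10 LFC arrays but on only 4 of 11 HFC arrays. HFC minus LFC was -3.20 at Day 1, -3.96 at Day 6, -0.46 at Day 10, -2.90 at Day 14 and -4.63 at Week 0. It was -3.89 at Week 3, -2.71 at Week 9, -11.2 at Week 12, -1.03 at Week 15 and 1.13 at Week 18. The large value of Week 12 sets a bright LFC array against HFC Week 12, on which the probe was not well above background.

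The fitted difference of Elovl3 was -2.98 ± 0.83 (SE, 38 arrays with a value). Since most HFC arrays had the probe near background, no fold is given for it. The difference ranged from -3.45 to -2.13 with each time label left out, and it was -2.13 ± 0.69 without Week 12. No probe was called in this contrast by limma after Benjamini-Hochberg adjustment (0 of 34036 probes, 0%; 959 had an unadjusted p below 0.05). Without LFC Day 10 and HFC Week 12 the Elovl3 difference was -2.57 ± 0.74, and without the bright arrays it was -2.38 ± 0.60. With the Day 14 labels exchanged it was -2.42 ± 0.89, and HFC was lower at 8 of 10 labels. A normexp background correction, which lifts dim probes, reduced it to -1.09 ± 0.53, while the median of all probes moved from 0.05 to -0.26.

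From Day 1 to Week 0 the Elovl3 probe was not well above background on any of the 5 HFC arrays. For each of these arrays the higher of the probe's own signal and the dimmest signal well above background was taken as a stand-in. The LFC mean of -2.65 over 5 arrays, 4 of them well above background, was 6.09-fold higher than the mean stand-in. Without LFC Day 10, the array that was not, the LFC mean was 10.3-fold higher. On HFC Day 14 Elovl4 read -2.35 without being well above background, against a stand-in of -3.69. A probe near background can thus read higher than the stand-in, and these folds are not lower limits. With the Day 14 labels exchanged an HFC array would have measured the probe, and the stand-ins would not apply. The measured HFC mean was -5.68. From Week 3 to Week 18 the HFC mean was higher, at -2.72 ± 3.13 (SD, n = 6), and it was -1.56 ± 1.48 (SD, n = 5) without Week 12. LFC stood at 0.34 ± 1.98 (SD, n = 5) in those weeks and at -0.25 ± 1.72 (SD, n = 4) without Week 12. HFC was thus lower in both periods, and its mean was higher in the later one. Whether the distance between the diets changed with time was not tested.

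**Figure D1:**
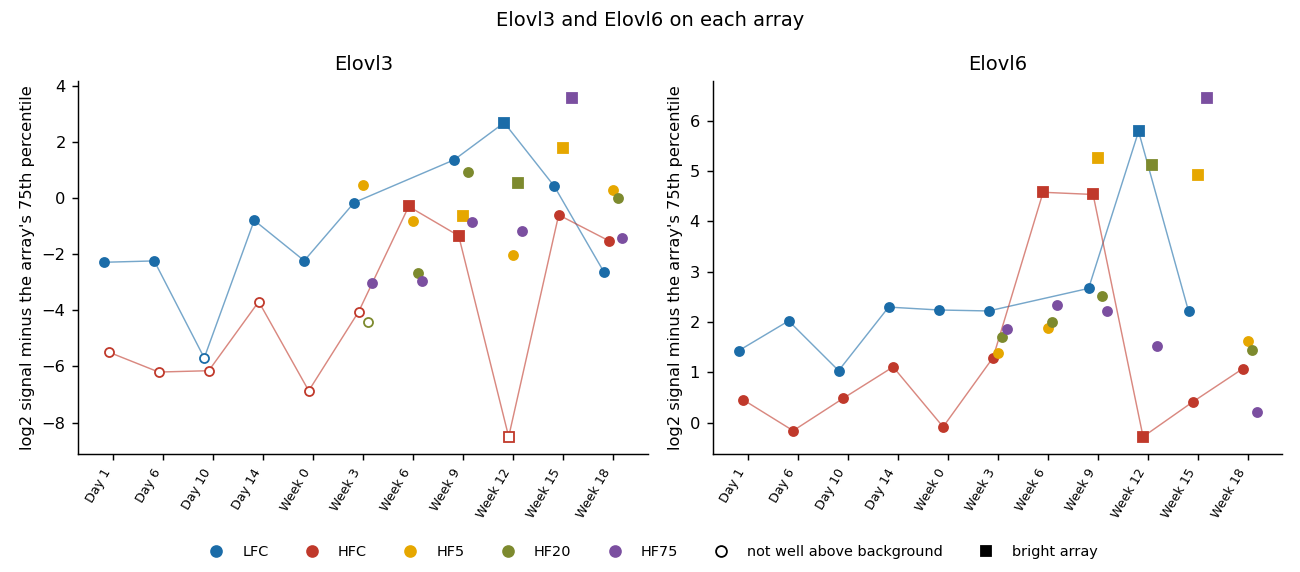
Level of Elovl3 (left) and Elovl6 (right) on each array, as log2 signal minus the array's 75th percentile (y axis) against the time label (x axis, not to scale in days), with 1 point per array, lines joining LFC and HFC, open symbols where the probe was not well above background and squares for the bright arrays. HFC lies below LFC at most labels for both genes, and the Elovl6 values from 4.53 to 6.45 all come from bright arrays.

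Elovl6 was lower in HFC than in LFC at 8 of the 9 labels at which both had a value. The LFC levels had a low of 1.03, a median of 2.22 and a high of 5.79 over 9 arrays (LFC Week 18 was marked as an outlier). The HFC levels had a low of -0.28, a median of 0.48 and a high of 4.58 over 11 arrays. The probe was well above background on all 39 arrays, and it was saturated on LFC Week 12, whose 5.79 is a lower limit. The high values came with array brightness. On 7 bright arrays Elovl6 lay between 4.53 and 6.45, HFC Week 12 at -0.28 was the exception, and HF20 Week 15 had no value. On the other arrays the highest value in any diet was 2.67. Of the 7 bright arrays with high values all but HFC Week 6 are also titled BA or BAT. On titled arrays that were not bright Elovl6 was at 0.45 (HFC Day 1) and 2.02 (LFC Day 6). The parts of brightness and of title were not tested.

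The Elovl6 difference was therefore also read among the arrays that were not bright. There LFC lay between 1.03 and 2.67 (n = 8) and HFC between -0.16 and 1.29 (n = 8). The ranges overlapped through 1 LFC array, Day 10 at 1.03, which lay below 3 HFC arrays, Week 18 at 1.07, Day 14 at 1.11 and Week 3 at 1.29. HFC was lower at 7 of 7 labels, by a mean of -1.42 ± 0.68 (SD, n = 7). With the Day 14 labels exchanged it was lower at 6 of 7, by a mean of -1.08 ± 1.21 (SD, n = 7). At the labels whose LFC and HFC arrays were scanned on 1 date, Elovl6 was lower at 5 of 5 and Elovl3 at 5 of 6.

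The fitted Elovl6 difference was -1.21 ± 0.72 (SE) over all arrays, a 2.31-fold lower signal in HFC. Without the bright arrays it was -1.32 ± 0.30, with a smaller error. It was -0.66 ± 0.66 without Week 12, -0.88 ± 0.74 without LFC Day 10 and HFC Week 12, -0.96 ± 0.73 with the Day 14 labels exchanged, and -0.48 ± 0.86 after normexp correction. As for Elovl3, the contrast called 0% of the probes.

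In the fit over all arrays the other 5 elongases had HFC differences nearer to 0, where they could be fitted. Over the alternatives run, Elovl6 ranged from -1.65 to -0.48 and Elovl5, its dimmer probe included, from -0.65 to -0.28. These 2 ranges overlapped. Elovl5, which lengthens polyunsaturated chains, was lower in HFC at 8 of 10 labels, with a fitted difference of -0.51 ± 0.35. Its level had a low of 2.95, a median of 3.55 and a high of 4.30 in LFC, and a low of 2.37, a median of 3.10 and a high of 3.79 in HFC. The dimmer Elovl5 probe gave -0.65 ± 0.39. Elovl1 was lower at 4 of 10 labels, with a difference of -0.04 ± 0.41, and its LFC range of 0.78 to 4.09 enclosed the HFC range of 1.21 to 3.92. Elovl7 was lower at 6 of 10 labels, with a difference of 0.22 ± 0.70 (dimmer probe -0.02 ± 0.72). As background, 2.26% of the 21361 genes with values at all 10 labels were lower in HFC at 9 or more of them.

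Elovl2 and Elovl4 were near the limit of the array. Elovl2 was well above background on 5 of 39 arrays, too few to enter the fit, with a low of -8.80, a median of -5.02 and a high of -1.93. Elovl4 was well above background on 8 arrays, with a low of -8.56, a median of -4.96 and a high of -1.05, and its fitted HFC difference was -0.07 ± 0.60. No fold is given for Elovl2. Elovl1 and Elovl5 were well above background on all 39 arrays, and Elovl7 on 35 by its brighter and 25 by its dimmer probe.

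**Figure D2:**
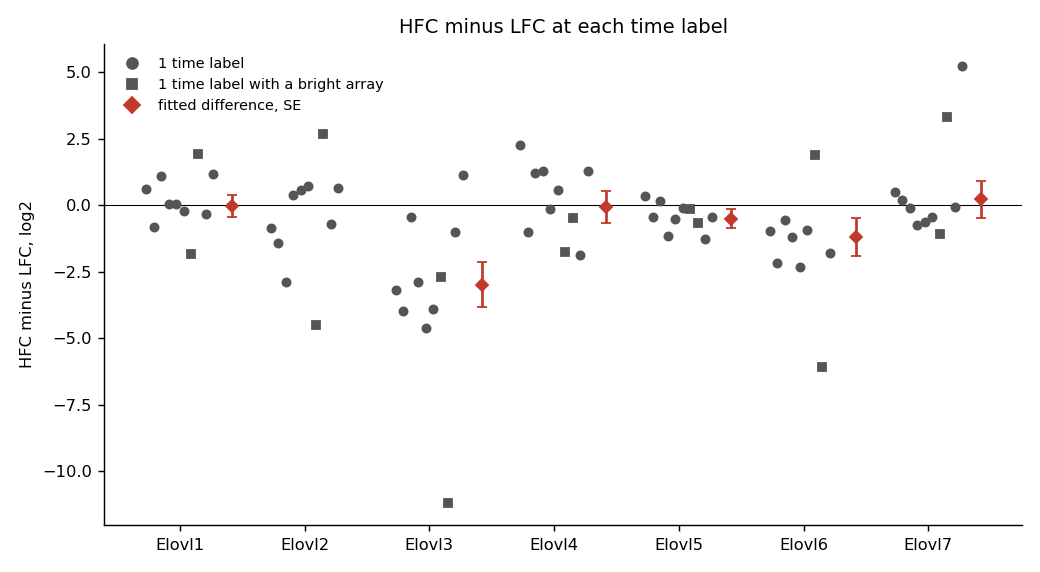
HFC minus LFC of the 7 genes (x axis) in log2 units (y axis), with 1 grey point per time label (squares where either array was bright) and the fitted difference with its SE in red; Elovl2 has no fit. For Elovl3 9 of 10 points and for Elovl6 8 of 9 points lie below 0, whereas the points of Elovl1, Elovl2, Elovl4 and Elovl7 fall on both sides.

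Levels of other members also differed between the bright and the other arrays. On the bright arrays the Elovl1 level had a median of 1.27 (n = 9) against 3.16 (n = 30) on the others, and Elovl7 had a median of -3.75 (n = 8) against -0.76 (n = 30). Elovl6 and Elovl3 were higher on the bright arrays, Elovl6 with a median of 5.02 (n = 8) against 1.57 (n = 28) and Elovl3 with a median of 0.13 (n = 8) against -2.13 (n = 30). Elovl5 had medians of 2.65 (n = 9) and 3.04 (n = 30). The summed signals of most cell marker lists, in units of the array's 75th percentile, were lower on the bright arrays too. Their medians on the bright and the other arrays were 3.49 and 109 for neutrophil, 7.89 and 21.02 for macrophage, and 2.11 and 7.99 for T cell markers. They were 30.9 and 106 for endothelial, 124 and 319 for fibroblast, 121 and 1728 for erythroid and 579 and 976 for general adipocyte markers. Skeletal muscle markers were higher on the bright arrays, at 166 against 58.3. For 10 brown adipocyte markers the medians were 383 and 367, but up to 5 of these probes, and up to 7 of the 12 general adipocyte probes, were saturated on a bright array. The part of cell makeup and of scanning in these shifts was not tested.

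**Figure D3:**
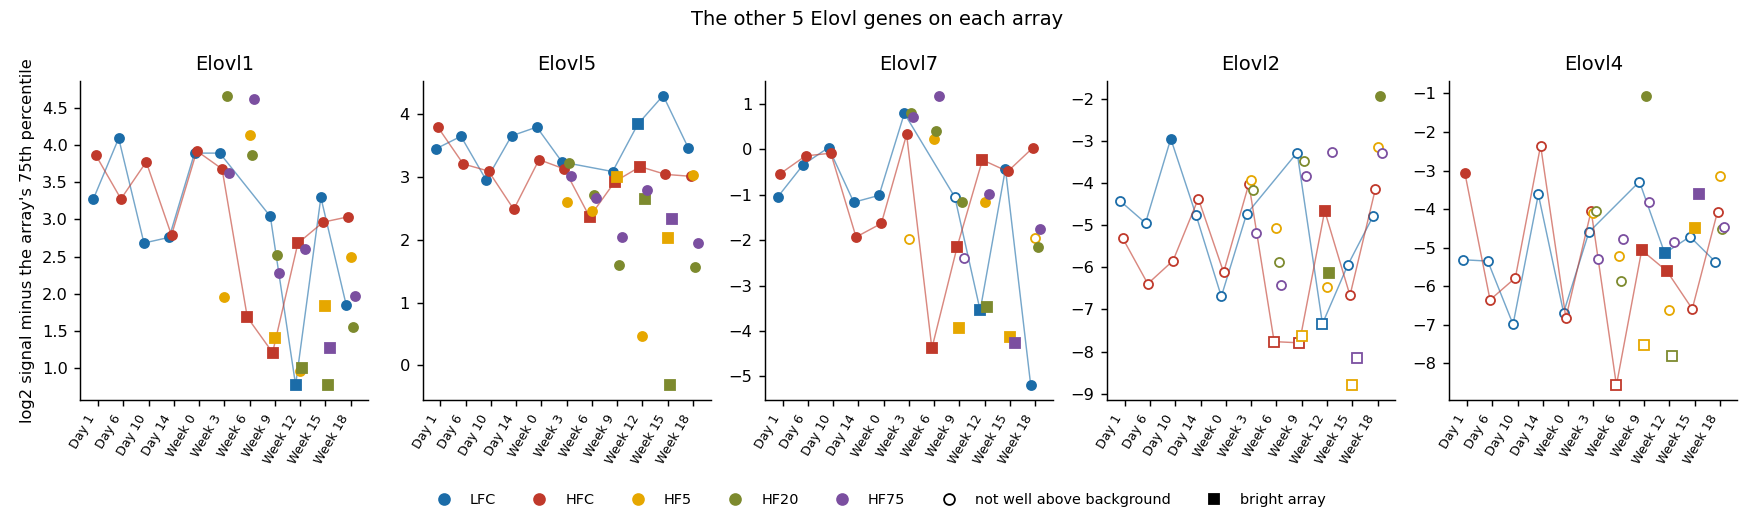
Levels of Elovl1, Elovl5, Elovl7, Elovl2 and Elovl4 on each array, drawn as for Elovl3 and Elovl6, with a y axis of its own for each gene. Most Elovl2 and Elovl4 symbols are open, and many of the lowest Elovl1 and Elovl7 values are squares from bright arrays.

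The KAL-1 diets address whether the formulation changes the response to the high fat diet. With KAL-1, Elovl3 stood above HFC in all 3 fits, but these fits share the HFC arrays and are not independent. The sign was not the same at every label. In the order of dose, KAL-1 minus HFC was -0.51, -2.39 and -2.65 at Week 6, where the HFC array was bright. It was 6.48, 9.05 and 7.33 at Week 12. HF20 was also lower at Week 3, at -0.36, and the other values were above 0, the smallest 0.09 in HF75 at Week 18. HF5 levels had a low of -2.02, a median of -0.18 and a high of 1.79, with the probe well above background on 6 of 6 arrays. HF20 had a low of -4.40, a median of -0.0012 and a high of 0.94 over 5 arrays, and HF75 a low of -3.02, a median of -1.30 and a high of 3.57. HFC had a low of -8.50, a median of -1.43 and a high of -0.30 over Week 3 to Week 18, so all 3 ranges overlapped with it. Fitted against HFC, Elovl3 was 2.58 ± 1.03 higher in HF5, 2.06 ± 1.1 higher in HF20 and 1.76 ± 1.03 higher in HF75.

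These values depend on Week 12. With that label left out they came to 2.22 ± 0.88 in HF5, 0.96 ± 0.96 in HF20 and 1.07 ± 0.88 in HF75. After normexp correction the HF5 difference was 0.94 ± 0.66. Without HF20 Week 12, the array with conflicting labels, HF20 stood 1.40 ± 1.18 above HFC. Against LFC Elovl3 differed by -0.41 ± 1.06 in HF5, by -0.93 ± 1.14 in HF20 and by -1.22 ± 1.06 in HF75. The sign of each turned under at least 1 alternative, so no direction against LFC is given. None of the 6 KAL-1 contrasts called a probe (0% each, limma, adjusted p). At an unadjusted p below 0.05 between 498 (HF5 against HFC) and 3605 (HF75 against LFC) of 34036 probes passed. Probes also pass this threshold by chance, and these counts are not read as results.

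The fitted Elovl6 differences between the KAL-1 diets and HFC, which share the HFC arrays, were less than 1.5 times their SE, and 2 of the 3 had no stable direction. Among the arrays that were not bright, HF5 lay between 1.38 and 1.88 (n = 3), HF20 between 1.44 and 2.51 (n = 4) and HF75 between 0.21 and 2.34 (n = 5). The highest HFC value in that set was 1.29. That HFC set also holds Day 1 to Week 0, which no KAL-1 diet has, so the ranges are not set against each other. In the order of dose, KAL-1 minus HFC was 0.09, 0.40 and 0.57 at Week 3, and 0.55, 0.37 and -0.86 at Week 18. Without the bright arrays the fitted differences from HFC were 0.50 ± 0.49, 0.65 ± 0.45 and 0.39 ± 0.45 in the order of dose. With all arrays they were 1.28 ± 0.92, 0.89 ± 0.92 and 0.60 ± 0.86. HF75 turned to -0.53 ± 0.79 without Week 15, and HF5 to -0.13 ± 0.63 without the arrays titled BA or BAT. HF20 came to 0.25 ± 0.98 without HF20 Week 12.

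Elovl5 was lower in each KAL-1 diet than in LFC at all 5 labels the diets share, though by only -0.02 in HF20 at Week 3. The dimmer probe stood at 0.02 there. The share of all genes lower at all 5 labels was not determined. HF5 had a low of 0.47, a median of 2.53 and a high of 3.03, HF20 a low of -0.31, a median of 2.12 and a high of 3.22, and HF75 a low of 1.95, a median of 2.50 and a high of 3.01, against the LFC range of 2.95 to 4.30. LFC and the KAL-1 diets differ in fat as well as in KAL-1. Against HFC the fitted Elovl5 difference was -0.75 ± 0.44 in HF5, -1.11 ± 0.44 in HF20 and -0.55 ± 0.44 in HF75. Against LFC the fits, which share the LFC arrays, put HF5 at -1.26 ± 0.45, HF20 at -1.62 ± 0.45 and HF75 at -1.06 ± 0.45. The dimmer probe gave -1.27 ± 0.50, -1.56 ± 0.50 and -1.36 ± 0.50. The lowest values of HF5 and HF20 came from arrays with many outlier-marked spots, and without the 3 such arrays the differences were -0.81 ± 0.32, -1.15 ± 0.33 and -1.04 ± 0.30. Endothelial markers were lower in the same contrasts, 6 of 6 genes each, with medians of -0.96, -1.08 and -0.54 against medians of 0.03, 0.07 and 0.16 over all genes; their part in the Elovl5 difference was not tested.

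**Figure D4:**
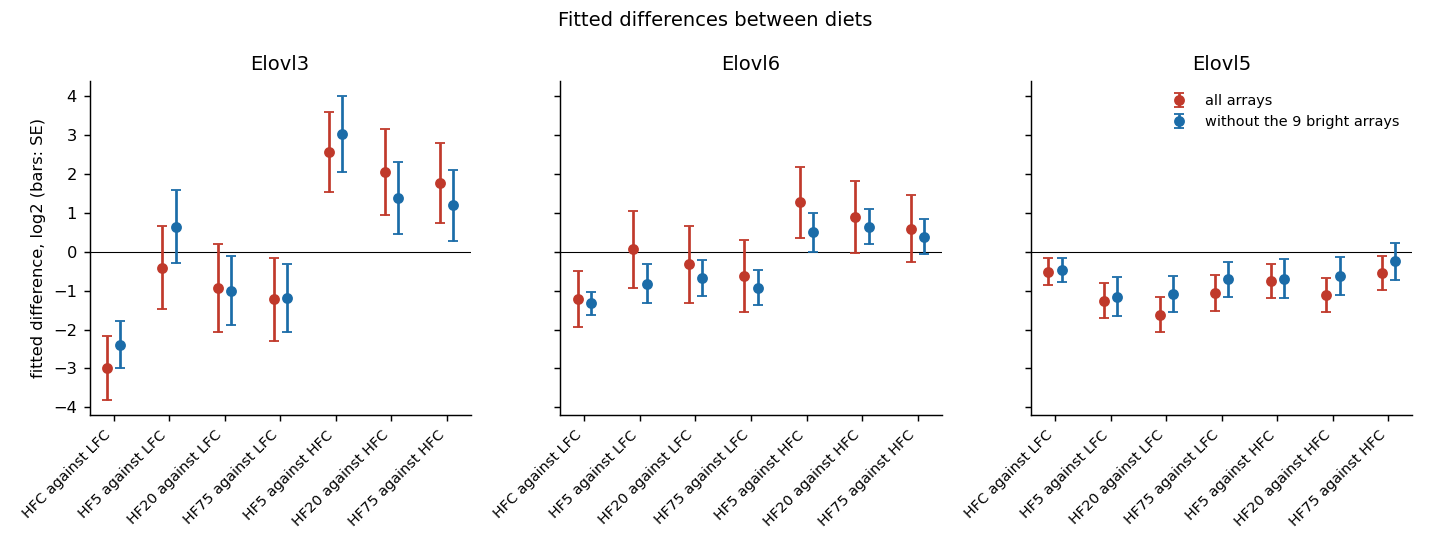
Fitted differences (y axis, log2, bars are SE) of Elovl3, Elovl6 and Elovl5 for 7 pairs of diets (x axis), with all arrays in red and without the 9 bright arrays in blue. Elovl3 and Elovl6 are lower in HFC than in LFC in both fits, and Elovl5 is lower in each KAL-1 diet than in LFC.

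The change with time on the diets was tested in the 21 LFC and HFC arrays as a slope per log2 unit of days, with diet as a term. Elovl3 had the steepest slope of the members fitted, 0.59 ± 0.22 (SE), and it did not pass (limma, adjusted p = 0.314). Elovl2 was too dim to be fitted. Elovl6 had a slope of 0.30 ± 0.15 (limma, adjusted p = 0.422), and Elovl1 had one of -0.22 ± 0.09 (limma, adjusted p = 0.338). Elovl4, Elovl5 and Elovl7 had slopes between -0.21 and -0.03. The median over all probes was -0.05, and 0 of 34036 probes were called (0%; 4057 with an unadjusted p below 0.05). All bright arrays are of Week 6 or later, and without them the slope of Elovl6 was 0.12 ± 0.07 and that of Elovl1 -0.11 ± 0.07, while that of Elovl3 was 0.58 ± 0.19.

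The enzymes that complete each round of elongation had differences of both signs. Of 7 partners 0 were called, 4 were lower in HFC and 3 higher, with a median of -0.05 against 0.04 over all 24669 genes. Tecr, the enoyl reductase, was at -0.69 ± 0.47. Hsd17b12, the ketoacyl reductase, was at -0.08 ± 0.58. The dehydratases Hacd1, Hacd2, Hacd3 and Hacd4 were at -0.14 ± 0.35, -0.05 ± 0.58, 0.23 ± 0.51 and 0.06 ± 0.41, under their older symbols on the array. Tecrl, a Tecr-like gene, was well above background on 6 arrays and was at 0.21 ± 0.59.

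All 12 genes of fatty acid synthesis, the pathway that supplies the substrate of Elovl6, were lower in HFC, with a median of -1.83, although 0 were called. Acaca, the acetyl-CoA carboxylase, was at -2.37 ± 0.88, Fasn, the fatty acid synthase, at -2.06 ± 0.50 with its probe saturated on 9 arrays, and Srebf1, a regulator of these genes, at -0.49 ± 0.62. Among 6 desaturases tested 3 were lower, with a median of -0.12. Scd1, which desaturates the products of Elovl6, was at -3.49 ± 0.63, whereas Fads2, which acts before Elovl5 on polyunsaturated chains, was at -0.38 ± 0.34. Of 5 ceramide synthases, some of which use very long chains, 3 were lower, with a median of -0.03 and Cers2 at -0.03 ± 0.52. Cers1 was not found on the array by either symbol.

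Markers of other cell types were read in the same contrast, in which 0 probes were called. Of 10 brown adipocyte markers 8 were lower in HFC, with a median of -0.53, Ucp1 at 0.50 ± 0.99 and Cidea, a lipid droplet protein, at -1.03 ± 0.73. Of 12 general adipocyte markers 11 were lower, with a median of -0.41 and Adipoq at -0.42 ± 0.65. Cidea was saturated on 8 arrays and Ucp1 and Adipoq on 7 each, which limits their differences, and Fabp4 was saturated on 19 of the 21 LFC and HFC arrays and is given no difference. Of 10 macrophage markers 9 were higher, with a median of 0.39, Cd68 at 0.35 ± 0.54 and Adgre1 at 0.05 ± 0.50. Neutrophil markers were higher in 8 of 8 genes, with a median of 0.62, and T cell markers in 6 of 7, with a median of 0.44. Endothelial, fibroblast, skeletal muscle and erythroid markers had medians between -0.40 and 0.12. The summed brown adipocyte signal ranged from 13.7 to 1035 in LFC and from 5.75 to 464 in HFC, and the summed macrophage signal from 7.89 to 35.2 and from 5.71 to 85.9. The brown adipocyte lows were those of LFC Day 10 and HFC Week 12, and the macrophage high was that of HFC Week 12. Over the other 37 arrays of all diets the sums ranged from 16.6 to 1692 and from 3.68 to 82.3. The part of these cells in the Elovl differences was not tested.

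Likeness to other genes was measured by Pearson's r of the levels over the arrays, among 13019 genes well above background on at least 30 arrays. It is a description, and the arrays share brightness, diet and time. The 5 genes most like Elovl3 were Chpt1 (r = 0.86, 37 arrays), Echdc1 (r = 0.85), Gys2 (r = 0.83), Nol3 (r = 0.79) and Acot11 (r = 0.78, 38 arrays each from Echdc1 on). For Elovl6 they were Acaca (r = 0.93, 36 arrays), Gm8738, Osgepl1, Gm11295 and BC004004 (r = 0.93 each). Without the bright arrays the Elovl6 list became Fasn (r = 0.81, 28 arrays), Lctl (r = 0.78), Acot11 (r = 0.73), Acss2 (r = 0.72) and Acly (r = 0.72). Chpt1 and Echdc1 remained the 2 most like Elovl3. Within the family Elovl3 and Elovl6 had r = 0.72 over 36 arrays and r = 0.64 over 28 arrays without the bright ones. Elovl6 had r = -0.69 with Elovl7 over all arrays and r = 0.12 without the bright ones.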

How the data were processed

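Gene expression was measured on 39 one-colour Agilent arrays. The deposited scanner files hold Cy3 signal intensity per spot, with background subtracted by Agilent Feature Extraction; the submitters' notes give version 9.1 and the file headers another. The deposited series table holds log2 values that the authors normalised with Agilent GeneSpring GX, as the methods state for each tissue, and set relative to LFC. As these are the authors' own comparisons, it was used only for gene symbols, probe sequences and a check of labels. Here the processed signals had outlier-marked spots dropped, spots of a probe were averaged, log2 was taken and each array's 75th percentile was subtracted. A probe was tested when well above background on at least 6 arrays, with a value in every diet and time label (34036 probes).

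Diets were compared with limma 3.58.1 (R 4.3.3, Python 3.11.15 for tables and plots), with diet and time label as terms over all 39 arrays. The slope used diet and log2 days. Benjamini-Hochberg adjusted p below 0.05 was a call. P-values of the diet contrasts measure the spread left after diet and time label, shared over all 39 arrays. Those of the slope measure the spread left after diet and log2 days. The precision is limited by the number of arrays. The model was tested on simulated data. The simulated noise was independent between arrays and held no differences in brightness, so its outcome is not used as support.

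Alternatives changed the background correction, normalization, filter, weights, blocks and arrays included. The genes, lists and tests were chosen with earlier results of these data known. Named genes were the 7 members, their partners, 12 genes of the other lists and, for Elovl3 and Elovl6, the 5 genes most like them.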

Additional observations from a re-analysis of the deposited data

Results flagged for a closer look

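Single arrays stood far from the rest of their diet in 4 of 28 sets of levels examined (7 genes in the 4 diets with 10 arrays or fewer); chance marks about 1 in 20 such sets. For Elovl6 these were LFC Week 12 at 5.79 (next 2.67), HF20 Week 12 at 5.12 (next 2.51) and HF75 Week 15 at 6.45 (next 2.34). For Elovl3 it was HF75 Week 15 at 3.57 (next -0.84). All 4 values come from bright arrays. The LFC Week 12 spot of Elovl6 was saturated.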

How the results depend on the processing

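Each of the 8 comparisons called 0 probes as reported. HFC against LFC called 3 under quantile normalization, 24 under array weights, 2 without the arrays titled BA or BAT, 1 without HF20 Week 12, 14 without the bright arrays and 9 without these and LFC Day 10, and 0 to 1 with each time label left out. HF75 against HFC called 1 under array weights and 3 without the arrays titled BA or BAT. HF75 against LFC called 7 under array weights and 0 to 10 with each label left out, the 10 without Week 15. The slope called 5 under quantile normalization, 5 among probes well above background on at least 20 arrays, 172 under array weights and 0 to 1 with each label left out. The cause was not tested. The settings on bright arrays, on LFC Day 10 and HFC Week 12 and on the Day 14 labels were chosen after seeing the data. LFC and HFC arrays of 1 label did not all deviate together (residual correlation -0.41 to 0.67, above 0.1 at 7 of 10 labels). They were not taken as related animals, but the label as a term of the fit compares the diets within each label. Without the label, that is with no replicate block, the 7 diet contrasts also called 0 probes, and Elovl3 in HFC was at -2.91 and Elovl6 at -1.21.

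The HFC differences of Elovl3 (-3.53 to -1.09) and Elovl6 (-1.65 to -0.48) kept their sign under all 26 alternatives run. Against LFC, Elovl3 and Elovl6 changed sign in HF5, HF20 and HF75 under at least 1 alternative each. Elovl3 kept its sign under 21, 25 and 24 of the 26 and Elovl6 under 16, 24 and 25. Against HFC, Elovl3 kept its sign in all 3 diets under the 26, and Elovl6 in HF20, but not in HF5 (-0.13 without the arrays titled BA or BAT) or HF75 (-0.53 without Week 15). The series table was not run as an alternative, since it holds the authors' own comparisons. Dim probes limit Elovl2, Elovl4 and the HFC arrays of Elovl3.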
